A study of Mus musculus with 4 samples.

Results

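A set of 10 genes that mark tendon, cartilage and the fibrous core of heart valves was read in pooled mouse heart tissue: Scx, Mkx, Sox9, Tnmd, Cytl1, Fmod, Chad, Comp, Thbs4 and Acan. They were chosen by name but with earlier results of these data known, so their ranks and counts below are descriptions. All 10 had a probe set among the 18783 named genes of the table. Whole-transcript arrays were run on dissected atria and ventricles of mice aged 2 months, either wild type (Mef2a+/+) or knockout (Mef2a-/-) for the striated muscle transcription factor gene Mef2a. Each of the 4 groups (wild type atria, knockout atria, wild type ventricles, knockout ventricles) was 1 array carrying RNA pooled from 7 mice of both sexes. Neither the mouse strain nor the construction of the Mef2a allele is stated in the labels. With 1 array a group there is no spread between replicates and no test, so every ratio below is the difference between 2 pools and has no replicate check.

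Scleraxis, the product of Scx, is a basic helix-loop-helix factor of tendon and ligament progenitors that also acts in the formation of heart valves, where it favours the expression of collagens and proteoglycans. Mohawk, from Mkx, and SOX9 are its counterparts in tendon maturation and in cartilage. The valves, the fibrous annulus and the chordae share much of this program with tendon and cartilage, and they are cut off with the chambers when a heart is dissected. In bulk tissue fewer cells of a type and less RNA per cell cannot be told apart.

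The Mef2a probe set read 10.32 (log2 intensity) on wild type atria and 10.41 on knockout atria, with 10.28 and 10.34 on the corresponding ventricular arrays. It was not lower in either knockout pool. Which part of the gene its probes read, and which part was deleted, are not stated, so this signal does not check the labels. The pools are called knockout-labelled here, and every direction by genotype rests on those labels. The chamber labels were checked against 7 atrial cardiomyocyte genes, which were all at least 2-fold higher in atria, and 5 ventricular ones, which were all at least 2-fold lower, in both genotypes. Array medians lay between 5.66 and 5.75. The knockout-labelled atria array had an interquartile range of 2.97 against 3.18 to 3.21 on the others, and in the atrial genotype comparison genes in deciles 3 and 4 of mean level had median ratios of 0.19 and 0.18.

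A floor was set at 5.71, the median over every value deposited, and values below it are treated as near background. Cytl1 and Sox9 were at or above it on all 4 arrays, as were 47.5% of all genes, Scx on 3, and Fmod, Comp and Thbs4 on 2. Mkx, Tnmd, Chad and Acan were below it on every array, as were 45.0% of all genes. The tendon-defining membrane gene Tnmd and the cartilage-defining proteoglycan gene Acan were thus below the floor in every pool. The floor is a cut on level, and no measure of detection was used. Above it, the tendon and cartilage label of the group rests on genes that other connective tissue also uses.

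**Figure D1:**
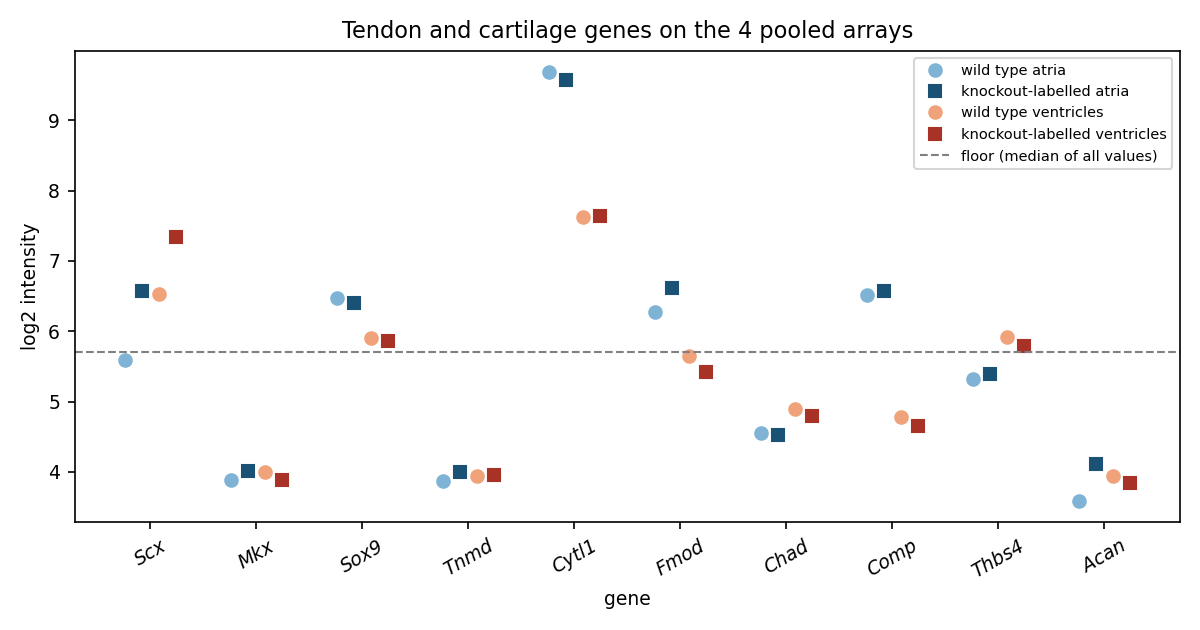
Log2 intensity (y axis) of the 10 genes (x axis) on the 4 arrays, with 1 point for each pooled array, and the floor of 5.71 as a dashed line. Scx runs from 5.59 in wild type atria to 7.34 in knockout-labelled ventricles, Cytl1, Fmod and Comp are higher on both atrial arrays, and Mkx, Tnmd, Chad and Acan lie below the floor throughout.

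Scx was the member whose genotype ratio was past 1.5-fold. Its value was 5.59 in wild type atria, 6.57 in knockout-labelled atria, 6.53 in wild type ventricles and 7.34 in knockout-labelled ventricles (log2 intensity). Each knockout-labelled pool was higher than the wild type pool of its chamber, and each ventricular pool was higher than the atrial pool of its genotype. The values of knockout-labelled atria and wild type ventricles, 6.57 and 6.53, cannot be put in order without replicates. The wild type atrial value lay just under the floor.

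Knockout against wild type asks which transcripts differ in mice labelled as lacking MEF2A. In atria the Scx log2 ratio was 0.98, or 1.98-fold higher, and it ranked 20 from the top among 10051 genes above the floor. In ventricles it was 0.81, or 1.76-fold higher, with rank 23 of 9713. These positions are near the head of both comparisons, which share no array. The share of genes past 1.5-fold on the higher side was 1.02% in atria and 0.515% in ventricles. It was 0.106% for both chambers together, and 0.36% when genes lower in both were added. Among genes in the same decile of mean level as Scx, the central 90% of ratios ran from −0.45 to 0.31 in atria and from −0.26 to 0.27 in ventricles, so that Scx lay outside both ranges. Under 3 other scalings (median centring, quantile normalization and lowess centring) the ratio stayed between 0.95 and 1.02 in atria and between 0.79 and 0.84 in ventricles.

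**Figure D2:**
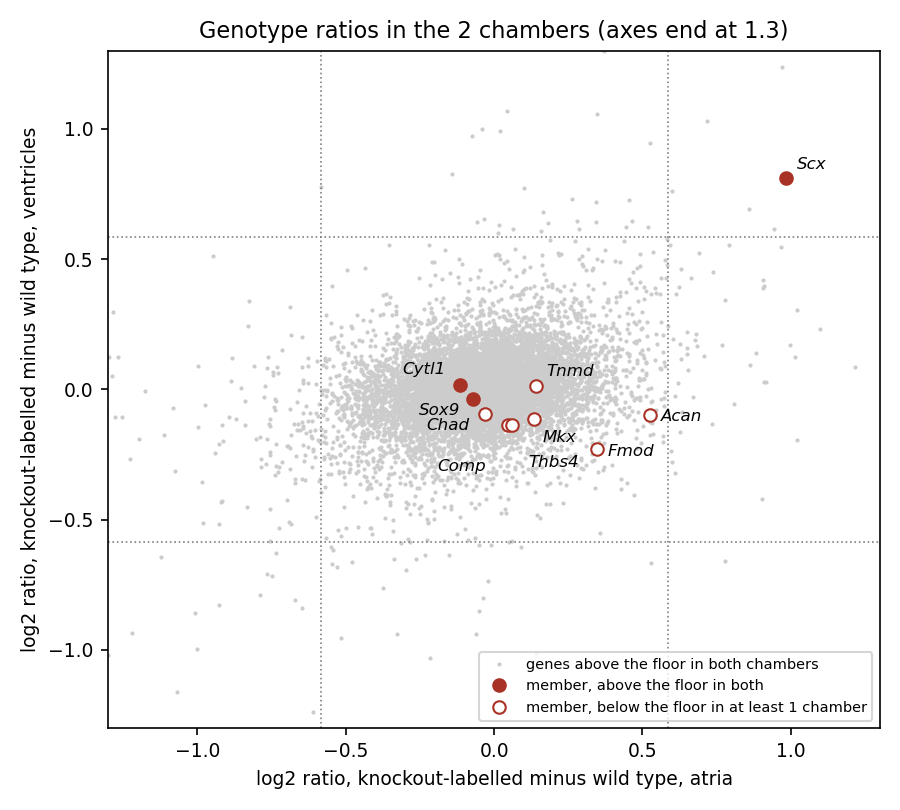
Log2 ratio of knockout-labelled over wild type in atria (x axis) and in ventricles (y axis), with 1 grey point per gene above the floor in both chambers and the 10 genes in red (open where below the floor in at least 1 chamber). Dotted lines mark 1.5-fold, and genes beyond the axis limits are not drawn. Scx, at 0.98 and 0.81, is the member beyond both lines, and Acan, at 0.53 and −0.10, and Fmod, at 0.35 and −0.23, are positive in atria and negative in ventricles.

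In the annotation Scx lies within the span of Bop1, a gene of ribosome assembly, so the neighbour was read too. Bop1 stood at 6.39 in wild type atria, 6.91 in knockout-labelled atria, 6.98 in wild type ventricles and 7.13 in knockout-labelled ventricles. It was likewise lowest in wild type atria and highest in knockout-labelled ventricles. Its ratios were smaller than those of Scx: 0.52 against 0.98 for genotype in atria and 0.15 against 0.81 in ventricles. The annotation table used gives no strand, and whether probes of either set also read the other gene was not tested. The next named genes on the other sides, Tssk5 and Dgat1, had genotype ratios of 0.09 and 0.23 in atria and of 0.03 and 0.22 in ventricles.

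Between chambers Scx was lower in atria by a log2 ratio of −0.94 in wild type, or 1.91-fold, and of −0.77, or 1.70-fold, in the knockout-labelled pair. Neither reached the 2-fold used for chambers. Genotype and chamber ratios were of similar size, so Scx spanned 1.75 log2 units from the lowest to the highest pool. Of 9437 genes above the floor in both chambers, 3 were at least 1.5-fold higher both with the knockout label in each chamber and in ventricles in each genotype, or 0.0318%. They were Scx, Gnb3 and Thrsp, a regulator of lipid synthesis. This pattern was set after the Scx values were seen and only describes them.

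The genes nearest to Scx were found by the distance between log2 values over the 4 arrays, each gene centred on its own mean. The 10123 genes ordered had to reach the floor on any array. The 5 nearest were Gnb3, which encodes a G protein beta subunit, at a distance of 0.29, Ddah1, for an enzyme that breaks down methylated arginines, at 0.38, Glul, the glutamine synthetase gene, at 0.39, Aqp4, which encodes a water channel, at 0.42 and the chemokine gene Cxcl9 at 0.44. The median distance over all these genes was 1.26. Gnb3 read 5.76 and 6.47 in wild type and knockout-labelled atria and 6.60 and 7.63 in the ventricles. Aqp4 was below the floor in wild type atria and ventricles, at 4.40 and 5.34, and Cxcl9 in wild type atria, at 4.81. Bop1 was at position 98, at 0.72. Of the other members ordered, none stood near: Thbs4, the closest, was at position 1233. Sox9, Fmod, Comp and Cytl1 lay between positions 9193 and 10026, with distances of 1.70 to 3.01. Mkx, Tnmd, Chad and Acan, below the floor on every array, were not ordered. A likeness over 4 arrays is a coarse measure.

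**Figure D3:**
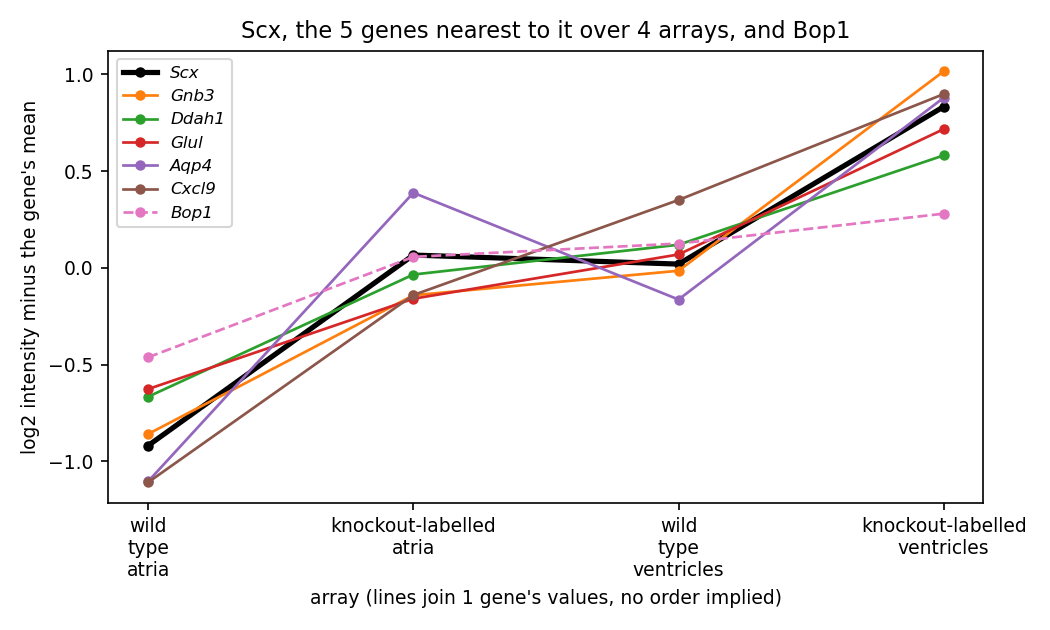
Log2 intensity minus each gene's own mean (y axis) on the 4 pooled arrays (x axis) for Scx in black, the 5 nearest genes and, dashed, Bop1. All 7 are lowest in wild type atria and highest in knockout-labelled ventricles, and Bop1 has the flattest line, with a range of 0.74 log2 units against 1.75 for Scx.

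The other regulators differed little by genotype. Sox9, the main transcription factor of cartilage and of valve mesenchyme, read 6.48 and 6.40 in wild type and knockout-labelled atria and 5.90 and 5.86 in the ventricles. Its genotype ratios were −0.07 and −0.04. It was higher in atria by 0.57 in wild type and 0.54 in the knockout-labelled pair, or 1.49-fold and 1.45-fold. Mkx, a homeobox factor of tendon, read 3.88 and 4.02 in wild type and knockout-labelled atria, with ventricular values between these. Tnmd, which encodes the tendon membrane protein tenomodulin, read 3.86 and 4.01 in wild type and knockout-labelled atria and 3.94 and 3.95 in the ventricles. Both stayed within 0.14 log2 units over the arrays, below the floor. The signs of the Tnmd ratios in both genotype comparisons and of the Mkx ratio in atria turned under another scaling.

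Cytl1, which encodes a small secreted protein first found in blood progenitors and made by cartilage cells, had the widest chamber difference of the group. It read 9.68 in wild type atria, 9.57 in knockout-labelled atria, 7.62 in wild type ventricles and 7.64 in knockout-labelled ventricles. Both atrial pools were above both ventricular pools. The chamber ratio was 2.06 in wild type, or 4.18-fold, and 1.93, or 3.81-fold, in the knockout-labelled pair, ranks 84 of 10035 and 98 of 10121 from the top. The genotype ratios were −0.11 in atria and 0.02 in ventricles. Of the genes beside it in the annotation, Msx1, a homeobox gene of valve cushions, was below the floor on every array, with chamber ratios of −0.16 and 0.15. Stk32b, a kinase gene, also read higher in atria, with chamber ratios of 0.92 and 1.56, but reached the floor on 1 array alone, at 6.18 in knockout-labelled atria against 5.17 in wild type atria, a genotype ratio of 1.01.

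Comp and Fmod shared the atrial side with Cytl1. Comp encodes cartilage oligomeric matrix protein, a thrombospondin that binds collagen fibrils. It read 6.52 and 6.57 in wild type and knockout-labelled atria and 4.79 and 4.65 in the ventricles, where it lay below the floor. Its chamber ratio was 1.73, or 3.33-fold, in wild type and 1.92, or 3.78-fold, in the knockout-labelled pair. Genotype ratios were 0.05 and −0.14. Fmod encodes fibromodulin, a small leucine-rich proteoglycan that controls fibril thickness, and read 6.27 and 6.62 in wild type and knockout-labelled atria and 5.65 and 5.42 in the ventricles, again below the floor. The Fmod chamber ratio was 0.62, or 1.54-fold, in wild type and 1.20, or 2.30-fold, in the knockout-labelled pair. The widening came from both sides, with genotype ratios of 0.35 in atria and −0.23 in ventricles. Among genes of the same decile of level the central 90% ran from −0.49 to 0.41 in atria and from −0.30 to 0.25 in ventricles, so neither genotype ratio of Fmod left that range.

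Thbs4, Chad and Acan had low values with other chamber signs. Thbs4 encodes thrombospondin-4, a matrix protein of tendon and of stressed heart muscle. It read 5.33 and 5.39 in wild type and knockout-labelled atria and 5.92 and 5.78 in the ventricles, with chamber ratios of −0.59 and −0.40. Unlike Comp, a thrombospondin of the same structural subgroup, it was thus above the floor in ventricles and below it in atria. Its genotype ratio was 0.06 in atria, a sign that turned under another scaling, and −0.14 in ventricles. Chad, for the cartilage protein chondroadherin, read 4.56, 4.52, 4.89 and 4.80 on wild type atria, knockout-labelled atria, wild type ventricles and knockout-labelled ventricles. It lies within the span of Acsf2, which read 6.20, 6.50, 7.24 and 7.22 in the same order and was also lower in atria. Acan, for the large cartilage proteoglycan aggrecan, read 3.59, 4.12, 3.94 and 3.85. Its ratio of 0.53 in atria was the largest among the members below the floor, and the central 90% for its decile of level ran from −0.21 to 0.53 around a median of 0.19. Lowest in wild type atria and highest in knockout-labelled atria, Acan changed its chamber sign, from −0.35 to 0.27.

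**Figure D4:**
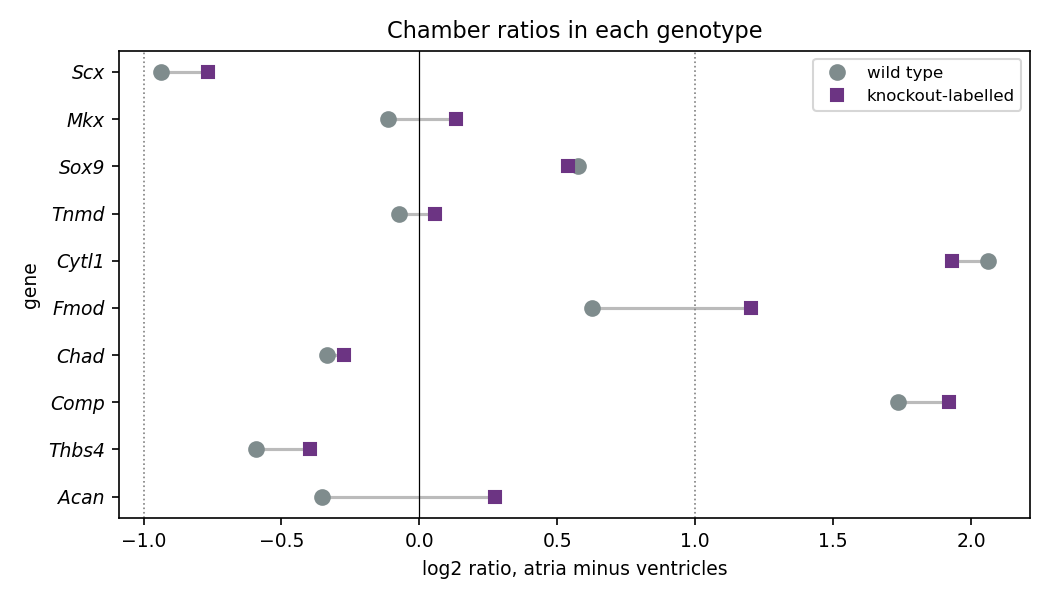
Log2 ratio of atria over ventricles (x axis) for the 10 genes (y axis), with a circle for the wild type pair and a square for the knockout-labelled pair; dotted lines mark 2-fold. Cytl1 and Comp are beyond 2-fold in both pairs, Fmod moves from 0.62 to 1.20, Scx stays on the ventricular side at −0.94 and −0.77, and Mkx, Tnmd and Acan cross 0.

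Counted together, 1 of 5 members above the floor (Scx) was past 1.5-fold in atria, against 3.03% of all genes above the floor in either direction. In ventricles it was 1 of 4 (Scx again), against 1.2%. The 10 members had a median genotype ratio of 0.10 in atria and −0.10 in ventricles, where the medians over all genes were 0.04 and 0.00. Without Scx the members above the floor ran from −0.11 to 0.35 in atria and from −0.14 to 0.02 in ventricles. Wild type atria against ventricles asks what separates the chambers. Of 6 members above the floor, Cytl1 and Comp were at least 2-fold higher in wild type atria and 0 were lower, against 3.89% of all genes higher and 6.1% in either direction. In the knockout-labelled pair Cytl1, Comp and Fmod were, against 3.46% higher and 6.3% in either direction. Cytl1 and Comp passed in both pairs, as did 2.8% of all genes above the floor in both. Both chamber comparisons share arrays with the genotype comparisons. In all these counts and shares a gene was above the floor when the brighter array of the pair reached it. Comp and Fmod reached it on the atrial arrays alone and Thbs4 on the ventricular arrays alone. In the atrial genotype comparison Scx reached it through the knockout-labelled array alone. These counts therefore only describe the members.

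Regulatory sequence was available for some of the genes that separated by chamber. The 250 bases before the annotated start are shown for Cytl1 and Fmod, the atrial genes with a RefSeq promoter, and for Thbs4, which ran the other way. They come from RefSeq on mouse GRCm38.p6, at chr5:37735269-37735518 on the plus strand, chr1:134037004-134037253 on the plus strand and chr13:92794819-92795068 on the minus strand. Capitals mark the E-box CANNTG, the site type read by basic helix-loop-helix factors such as scleraxis.
Cytl1: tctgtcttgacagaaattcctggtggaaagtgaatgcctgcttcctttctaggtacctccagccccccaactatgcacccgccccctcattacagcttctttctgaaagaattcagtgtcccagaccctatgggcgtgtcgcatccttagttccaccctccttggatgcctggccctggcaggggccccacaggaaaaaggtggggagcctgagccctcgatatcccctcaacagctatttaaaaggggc
Fmod: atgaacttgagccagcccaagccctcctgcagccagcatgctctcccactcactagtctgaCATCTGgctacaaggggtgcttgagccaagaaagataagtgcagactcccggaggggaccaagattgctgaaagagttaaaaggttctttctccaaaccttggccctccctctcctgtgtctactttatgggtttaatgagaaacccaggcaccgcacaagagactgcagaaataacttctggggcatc
Thbs4: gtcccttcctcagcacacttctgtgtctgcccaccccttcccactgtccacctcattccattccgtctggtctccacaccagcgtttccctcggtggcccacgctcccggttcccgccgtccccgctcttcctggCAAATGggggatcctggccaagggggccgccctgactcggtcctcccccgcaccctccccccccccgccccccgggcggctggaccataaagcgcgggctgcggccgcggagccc
Fmod and Thbs4 held 1 E-box each and Cytl1 held 0, on either strand, while 66.0% of 27025 promoter windows of this length held at least 1. None of these windows, nor those of Tnmd, Chad and Acan, held the MEF2 motif, which 3.01% of all windows held, so no E-box overlapped it. A match is a description of letters, and its absence says only that these letters are not in this window. Base composition also differed, with 54.8% G and C for Cytl1, 51.2% for Fmod and 70.8% for Thbs4.

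The partners of scleraxis in tendon were then read, from lists chosen with earlier results of these data known. Fibril collagens and other tendon matrix or regulator genes leaned the other way from Scx in atria: of 16 above the floor 12 had negative genotype ratios, with a median of −0.26 against −0.03 over all genes above the floor, and 0 passed 1.5-fold in either direction. The serine protease gene Htra3 at −0.54 and the fibrillar collagen gene Col3a1 at −0.37 had the largest sizes. In ventricles the median of this list was −0.03 over 15 genes, with Plod2, a collagen lysyl hydroxylase gene, at 0.30 and Tcf15, a basic helix-loop-helix factor gene, at −0.29. Small leucine-rich proteoglycans, the family of Fmod, had an atrial median of −0.25 over 8 genes. Lumican (Lum, −0.84) and Ecm2 (−0.76) were past 1.5-fold lower, and 0 were higher, against 3.03% of all genes past it in either direction. In ventricles the median of this family was −0.04 and 0 passed. Dcn and Lum of this list, and Col1a1 and Col3a1 of the tendon list, also stand in the fibroblast list below. Fmod, at 0.35, thus had the opposite atrial sign from 6 of these 8 genes.

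Signals upstream of scleraxis were mixed. Of 17 TGF-beta and GDF pathway genes above the floor in atria, Ccn2, a matricellular target of TGF-beta, was higher and Tgfb2, one of its ligand genes, lower, at 0.86 and −0.73. The list median was 0.08, and −0.02 over the 16 genes above the floor on the wild type array. In ventricles Ccn2 (0.69) was the 1 gene of 18 past 1.5-fold, and the list median of −0.01 changed its sign under another scaling. Ccn2 read 10.22 and 11.08 in wild type and knockout-labelled atria and 8.81 and 9.50 in the ventricles. It was higher with the knockout label in both chambers as Scx was, but higher in atria where Scx was lower.

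Cartilage genes under SOX9 had Matn2, an adaptor protein of the matrix, past 1.5-fold lower in atria at −0.73, and 0 past it in ventricles. Their atrial median had no settled sign, since it turned with the floor. It was 0.20 over the 12 genes above the floor on either atrial array and 0.16 over the 9 whose mean of the 4 arrays reached it. It was −0.21 over the 9 above it on the wild type array, a floor that leaves out genes reaching it only with the knockout label. With no floor it was 0.25 over 26 genes. Many of these read at low levels, and over all genes the atrial medians in deciles 3 and 4 of mean level were 0.19 and 0.18. In ventricles the median of the cartilage list was 0.06 over 9 genes. The cartilage-defining collagen gene Col2a1, named after its values were seen, read 5.81, 6.05, 5.74 and 5.81 on wild type atria, knockout-labelled atria, wild type ventricles and knockout-labelled ventricles, close to the floor throughout. Lecticans, link proteins and aggrecanases, relatives and cleaving enzymes of aggrecan, had 4 of 14 genes above the floor and 0 past 1.5-fold. Adamts1, a versican and aggrecan protease gene, stood at 0.32 in atria and 0.54 in ventricles, and Adamts5, an aggrecanase gene, at −0.40 and −0.05. Of the other thrombospondin genes, Thbs1 and Thbs2 stood at 0.14 and −0.53 in atria and at 0.32 and −0.18 in ventricles, and Thbs3 was below the floor on all arrays.

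**Figure D5:**
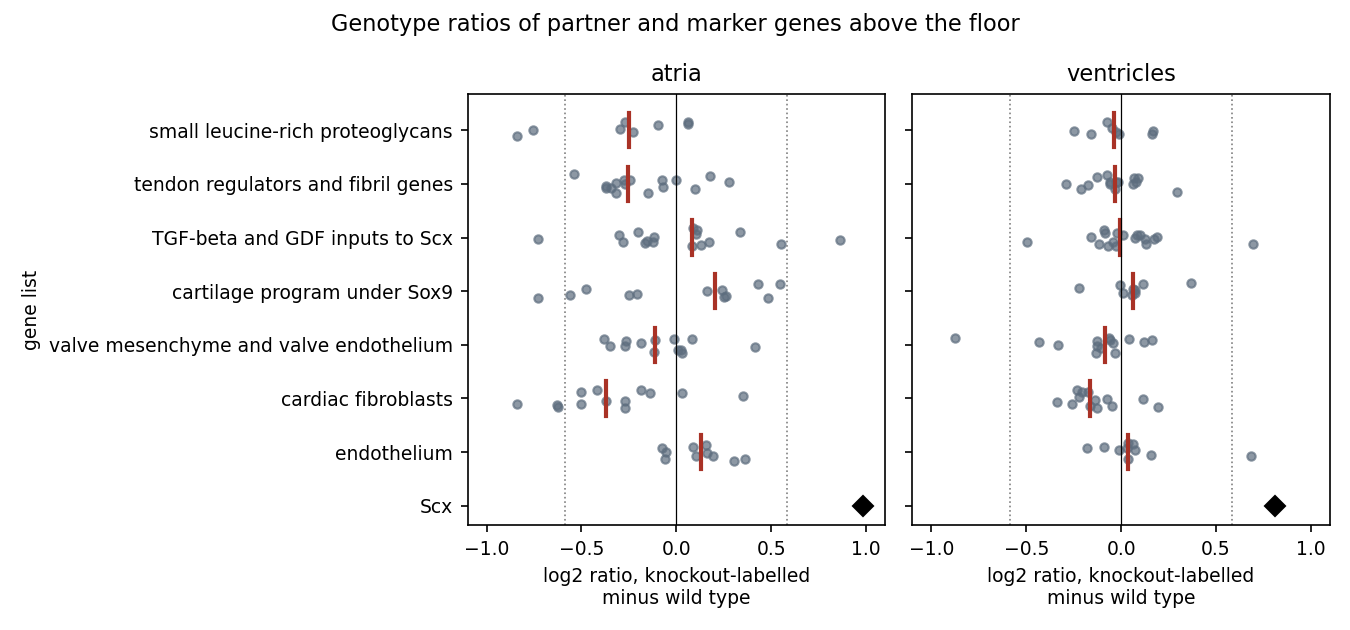
Log2 ratio of knockout-labelled over wild type (x axis) in atria (left) and ventricles (right) for genes above the floor in 7 partner and marker lists (y axis), with 1 grey point per gene, a red bar at each list's median and Scx as a black diamond. Dotted lines mark 1.5-fold. The atrial bar of the cartilage list, at 0.20, changes its sign with the floor. In atria the bars of the tendon, proteoglycan and fibroblast lists lie at −0.26, −0.25 and −0.37 while Scx lies at 0.98.

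Markers of cell types that the pools could hold were read beside these genes. For the counts below, 3.03% of all genes above the floor were past 1.5-fold in either direction in atria and 1.2% in ventricles. Valve mesenchyme and valve endothelium genes had 13 of 19 above the floor in atria, with a median of −0.11 and 0 past 1.5-fold. In ventricles they had a median of −0.09 over 14 genes, of which 11 were negative, and Wif1, a secreted Wnt inhibitor gene, was lower at −0.88 (6.27 to 5.39). Cardiac fibroblast genes, all 13 above the floor on every array, had a median of −0.37 in atria, with Lum, Pdgfra and Dpt past 1.5-fold lower, and −0.16 in ventricles. Their summed linear intensity was 14168 and 11392 in wild type and knockout-labelled atria and 8368 and 7983 in the ventricles. Endothelial genes had medians of 0.13 and 0.04, with 0 of 10 past 1.5-fold in atria and 1 in ventricles: Npr3, the natriuretic peptide clearance receptor gene, read 7.15 in wild type and 7.83 in knockout-labelled ventricles, a ratio of 0.68. Scx was higher in the pools where the median of the fibroblast markers was lower, and the part of any cell type in the Scx ratio was not tested. Skeletal muscle, on which tendon inserts, had 5 of 14 genes above the floor in wild type atria and 1 in knockout-labelled atria, and 4 and 2 in the ventricles, and 4 and 3 genes past 1.5-fold lower. The largest falls were in a pair of genes. The myosin light chain gene Myl1 read 9.43 and 5.66 in wild type and knockout-labelled atria and 8.09 and 4.47 in the ventricles. The calcium-storage gene Casq1 read 6.93 and 5.02 in atria and 8.48 and 5.72 in ventricles. Among other fast-fibre genes, Tnnt3 and Tnni2 were also past 1.5-fold lower in atria, at −0.66 and −0.59. Mybpc2 was past it in ventricles, at −1.03. Myh1, Myh2, Mylpf, Tnnc2 and Actn3, and Myod1, which specifies muscle cells, were below the floor on every array. The summed linear intensity of the skeletal muscle markers was 1215 and 453 in wild type and knockout-labelled atria and 1083 and 445 in the ventricles. Most of the difference in these sums lay in Myl1 and Casq1. Of adipose genes 3 of 7 were above the floor in atria, with Car3 (−2.09) and Retn (−1.07) past 1.5-fold lower, and in ventricles Car3 was higher at 0.74. Retn reached the floor in wild type atria alone, at 5.73. The adipocyte genes Adipoq, Plin1, Lep and Cidec were below it on every array. Smooth muscle and great vessel genes had medians of −0.07 in atria and −0.02 in ventricles, the second changing its sign under another scaling, with Cnn1 lower at −1.29 and Acta2 higher at 0.61 in atria. Epicardial and mesothelial genes had an atrial median of 0.02, whose sign also changed under another scaling, with Krt18 higher at 0.60, and a ventricular median of 0.04 with 0 past 1.5-fold. The 8 cardiomyocyte genes common to both chambers had medians of −0.06 and −0.02, with 0 past 1.5-fold. Lung and airway markers, read because airways carry cartilage, had 1 or 2 of 9 genes above the floor on each array, and 0 past 1.5-fold. Of 11 melanocyte genes, read because pigment cells live in atria and valves, Mlana was higher in knockout-labelled atria at 0.68, while Tyr, Tyrp1 and Dct were below the floor on every array.

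Marker lists were also read between chambers, beside Cytl1, Comp and Fmod. In wild type atria against ventricles, fibroblast genes had a median of 0.71, tendon fibril and regulator genes 0.61 and epicardial and mesothelial genes 1.25, with 3 of 13, 4 of 16 and 6 of 10 at least 2-fold higher in atria, against 3.89% of all genes above the floor. In the knockout-labelled pair the medians were 0.58, 0.38 and 1.16, with 1, 3 and 6 at least 2-fold higher, against 3.46%. Fmod and Comp had wider ratios in that pair (1.20 and 1.92) than in wild type (0.62 and 1.73). Podn, a proteoglycan gene of the Fmod family, read 10.65 and 10.72 in wild type and knockout-labelled atria and 6.88 and 7.04 in the ventricles, a ratio of 3.78 in wild type. The valve list had a smaller median of 0.15 over 14 genes, with 2 at least 2-fold higher in atria and Wif1 at least 2-fold lower. The part of these cell types in the chamber ratios of Cytl1, Comp and Fmod was not tested.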

How the data were processed

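RNA of 4 pools was measured on 1 array each. Per the submitters' processing notes the deposited values are log2 intensities made by the authors with RMA and the affy package, with no version named for either tool or for the probe set definitions. RMA compresses differences near background, and scanner files were not used here. Of 21212 probe sets, 18786 had 1 symbol in the platform annotation, 6 had several and 2420 had no entry; symbols were updated through RefSeq (GRCm38.p6; 18775 by gene number, 4 by accession, 7 kept). The probe set with the highest mean was kept per symbol, leaving 18783 genes.

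From these values log2 ratios were computed with pandas 2.3.3 on Python 3.11.15. A gene was counted past 1.5-fold (genotype) or 2-fold (chamber) when the brighter array reached the floor of 5.71. No test was run, since a group is 1 array, whose number limits the precision. The members and 18 partner lists (227 genes, 216 with a probe set) were chosen with earlier results of these data known. All members are named, with the 5 genes nearest to Scx. Other named genes were drawn from list genes past the fold (up to 4 per direction) or the 2 largest, and from the genes beside each member; not all of these are printed, and some below the floor were named after their values were seen. Counting was tested on simulated data. Alternatives were median centring, quantile and lowess scaling, other floors and other folds. RefSeq gave promoters for 6 of the 10 members.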

Additional observations from a re-analysis of the deposited data

Results flagged for a closer look

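Genotype ratios of opposite sign in atria and ventricles were found for 6 of the 10 members, with 1 pool each, so the difference was not tested. Of these members Cytl1 alone was above the floor in both chambers, and Scx and Sox9, also above it in both, had the same sign in each. Among all genes above the floor in both chambers, 42.1% had opposite signs. The ratio in atria minus that in ventricles was 0.62 for Acan, 0.58 for Fmod, 0.25 for Mkx, 0.20 for Thbs4, 0.19 for Comp and −0.13 for Cytl1. The signs of the atrial ratios of Mkx and Thbs4 turned under another scaling. Acan and Mkx were below the floor on all arrays, Fmod and Comp on both ventricular arrays and Thbs4 on both atrial arrays. Among partner and marker genes past 1.5-fold in at least 1 chamber, 7 had opposite signs. The share over all genes past 1.5-fold was not counted, so this number only lists them. The same difference, likewise not tested, was −2.83 for Car3, 0.63 for Fgf16, 0.72 for Krt18, −0.79 for Matn2, −0.82 for Tgfb2, −0.83 for Tnnt3 and 0.92 for Wif1.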

How the results depend on the processing

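The values have no replicate error, and the number of arrays limits all of them. Under median centring, quantile normalization, lowess centring and no floor, the counts of members past the fold in the 4 comparisons, and of Scx in both chambers, were within 1.5 times the values given. With the floor at the 75th percentile, 0 members were past 1.5-fold in atria and 0 the same way in both chambers, since Scx lies below that floor there, and 1 (Cytl1) was past 2-fold between chambers in wild type and 1 in the knockout-labelled pair. With 2-fold for genotype, 0 were past it in atria, 0 in ventricles and 0 in both, because Scx reached 1.98-fold and 1.76-fold. With 1.5-fold for chamber, 5 members were past it in wild type: Scx and Thbs4 on the ventricular side and Cytl1, Fmod and Comp on the atrial side. With the floor on the wild type array alone, chosen after seeing the data, the atrial medians of the cartilage and TGF-beta lists were negative, at −0.21 and −0.02. Scx, at 5.59 in wild type atria, lies under that floor. With it no member would be counted past 1.5-fold in atria or in both chambers. No called ratio of a named gene changed sign in the alternatives run. No paired analysis was possible because each group is 1 array.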
